A study of Mus musculus with 124 samples.

Results

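The genes described here are the cytosolic heat shock proteins HSP90α and HSP90β (Hsp90aa1 and Hsp90ab1) and 6 of their co-chaperones, Stip1, Ahsa1, Chordc1, Fkbp4, Ptges3 and Cdc37, in mice kept awake and in undisturbed mice. They were chosen by gene symbol, with earlier results of these data known. All 8 were found in both tables, among 17108 named genes in cerebral cortex and 13338 in liver. RNA was sequenced in both tissues of the same 62 mice, 11 to 12 weeks old, with food always accessible, under 12 h of light and 12 h of darkness. The deprived mice (SD, 36 mice) were kept from sleeping by gentle handling through the first 6 h of a light phase. Groups of 3 were killed after 3 h (T27) and at the end of deprivation (T30), every 6 h from then on up to T78, and a week later at T192 and T198; T is the time in hours on a clock that began with the light phase of the day before. The control mice (NSD, 26 mice) were not deprived, and ZT is the hour of their light-dark cycle. At lights-on (ZT0) 8 were killed, 4 at T0, which opens the earlier day, and 4 at T24, the lights-on at which deprivation began, pooled here as 1 group. The others were 3 at ZT3 and 5 each at ZT6, ZT12 and ZT18, all labelled with times of the earlier day. The labels used here state neither strain nor sex. Controls of ZT3, ZT6, ZT12 and ZT18 have labelled times a day or more before those of the deprived mice, so wakefulness, handling and labelled day cannot be told apart, and p-values measure the spread between these mice. Animal codes of 2 controls at ZT0 and 2 at ZT6 begin with J70 and J76, as do those of the SD mice of T192 and T198, and the labels do not say what the codes mean. Values are log2 CPM (a gene's share of the reads of a library, scaled to the same total in each), so a difference of 1 is a 2-fold difference, and a change is the SD value minus that of controls killed at the same ZT.

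HSP90 is an abundant chaperone that closes around a bound client protein while it hydrolyses ATP, and it brings steroid receptors and protein kinases to their active or stable form. Its co-chaperones act at set points of this cycle, delivering the client, holding the closed state, speeding ATP hydrolysis or selecting a class of clients. Heat shock factor 1, itself held in check by chaperones, binds inverted repeats of the bases GAA (heat shock elements) upstream of HSP90 and other chaperone genes, and in liver and brain heat shock genes are known to follow body temperature, feeding and time awake.

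On GRCm38 the members lie at chr12:110690605-110702728 (Hsp90aa1, minus strand), chr17:45567775-45573271 (Hsp90ab1, minus), chr19:7020702-7039967 (Stip1, minus), chr12:87266479-87273998 (Ahsa1, plus), chr9:18292125-18317442 (Chordc1, plus), chr6:128429735-128438677 (Fkbp4, minus), chr10:128058954-128077272 (Ptges3, plus) and chr9:21133222-21149982 (Cdc37, minus). All 8 are protein coding, and no gene with a value in either table overlaps them. RefSeq promoter windows (250 bases before to 50 after RefSeq's start of the gene, GRCm38.p6) were matched for 6 of the 8, all but Hsp90aa1 and Hsp90ab1. They were searched for the paired units of a heat shock element, GAANNTTC and TTCNNGAA, each of which reads the same on both strands; the pair can overlap. At least 1 of them stood in 15.05% of all 32817 windows, GAANNTTC in 7.86% and TTCNNGAA in 8.51%. The Chordc1 window held 5 matches, a number reached by 3 of all windows (0.00914%). The Fkbp4 and Cdc37 windows held 1 each, and those of Stip1, Ahsa1 and Ptges3 held none. RefSeq's start can differ from the gene positions listed above. The Chordc1 matches lie inside the listed gene and not upstream of it. The Ahsa1 window (chr12:87266478-87266777) begins beside the listed gene start, so the sequence upstream of that start was hardly searched. The 4 windows printed here span the range of matches among the members, from Chordc1 with the most to Stip1 with none. Sequence runs 5′ to 3′ on the strand of the gene, with matches in capitals.
Chordc1 (chr9:18292017-18292316, plus, capitals from position -4 to 41, with RefSeq's first transcribed base as 1 and no position 0): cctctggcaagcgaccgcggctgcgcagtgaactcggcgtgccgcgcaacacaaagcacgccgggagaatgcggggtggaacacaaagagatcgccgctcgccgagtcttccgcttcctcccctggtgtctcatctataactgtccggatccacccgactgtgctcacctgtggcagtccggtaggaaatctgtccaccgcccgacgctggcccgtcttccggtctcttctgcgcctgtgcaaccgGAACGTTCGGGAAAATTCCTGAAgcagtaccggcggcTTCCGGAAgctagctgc
Fkbp4 (chr6:128438607-128438906, minus, match at -151): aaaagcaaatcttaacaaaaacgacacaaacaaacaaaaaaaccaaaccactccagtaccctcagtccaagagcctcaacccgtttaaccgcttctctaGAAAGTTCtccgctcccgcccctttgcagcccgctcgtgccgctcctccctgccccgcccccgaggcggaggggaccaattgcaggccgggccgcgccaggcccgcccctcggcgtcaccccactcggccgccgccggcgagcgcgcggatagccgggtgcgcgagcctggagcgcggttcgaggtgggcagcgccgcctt
Cdc37 (chr9:21149885-21150184, minus, match at -170): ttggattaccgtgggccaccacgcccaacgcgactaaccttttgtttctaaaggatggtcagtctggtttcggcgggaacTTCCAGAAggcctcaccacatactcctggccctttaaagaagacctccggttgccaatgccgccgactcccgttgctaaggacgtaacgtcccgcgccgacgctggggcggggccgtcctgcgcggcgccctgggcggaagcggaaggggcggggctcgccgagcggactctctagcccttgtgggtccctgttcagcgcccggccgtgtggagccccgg
Stip1 (chr19:7039977-7040276, minus, no match): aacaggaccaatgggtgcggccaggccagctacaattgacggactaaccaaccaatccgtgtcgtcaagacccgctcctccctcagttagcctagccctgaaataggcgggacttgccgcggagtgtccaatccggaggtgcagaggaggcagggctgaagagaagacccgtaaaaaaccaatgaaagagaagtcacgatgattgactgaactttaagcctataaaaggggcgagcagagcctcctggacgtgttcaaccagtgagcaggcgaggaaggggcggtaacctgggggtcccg
These matches describe the letters of the windows; binding was not measured.

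Per kilobase of the principal transcript in the annotation, Hsp90ab1 was the more abundant HSP90 mRNA in both tissues. In cortex its median over libraries was 525 CPM per kb in SD mice and 523 CPM per kb in controls, and that of Hsp90aa1 was 187 CPM per kb in SD mice and 186 CPM per kb in controls. In liver the medians were 289 CPM per kb (SD) and 269.6 CPM per kb (controls) for Hsp90ab1, and 60.5 CPM per kb (SD) and 58.5 CPM per kb (controls) for Hsp90aa1. These medians pool all times. The tables were normalised separately, and fewer cells of a type and less RNA per cell cannot be told apart in either.

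In liver, 7 of the 8 members rose by the end of deprivation (T30), by 1.47-fold to 2.73-fold, and none fell. Among all liver genes, 7.84% rose and 7.95% fell at T30, and the median change was 0.00, against a median of 0.78 (log2) over the 8 members. Calls are limma's moderated test with Benjamini-Hochberg adjustment over all genes, adjusted p under 0.05, and each change includes a term for the label batch. Hsp90aa1, the stress-inducible HSP90, moved most. Its log2 CPM was 7.75, 8.10 and 8.21 in the 3 SD livers, against 6.31, 6.39, 6.62, 6.78 and 7.29 in the 5 controls. Every SD liver lay above every control. The change was 1.45 ± 0.25 (SE; adjusted p = 7.61e-05). Hsp90ab1, the constitutive form, had 9.79, 9.86 and 9.91 in SD livers, against 8.97, 9.03, 9.12, 9.25 and 9.37 in controls, again without overlap, a change of 0.69 ± 0.11 (SE; adjusted p = 1.87e-05).

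The adaptors and the ATPase activator rose alongside. Stip1 (HOP), which links HSP70 to HSP90 and hands over the client, had 6.62, 6.74 and 6.96 log2 CPM in SD livers, against 5.66, 5.66, 5.72, 5.81 and 6.25 in controls. The groups did not overlap, and the change was 0.99 ± 0.14 (SE; adjusted p = 3.41e-06), a fold of 1.99. Ahsa1 (AHA1), which speeds ATP hydrolysis by HSP90, had 6.32, 6.62 and 6.85 in SD livers, against 5.63, 5.65, 5.67, 5.82 and 5.92 in controls, a change of 0.88 ± 0.11 (SE; adjusted p = 3.14e-07). Chordc1 (morgana), a zinc-binding co-chaperone, had 5.70, 6.07 and 6.18 in SD livers, against 4.90, 4.95, 4.97, 4.97 and 5.48 in controls. Its highest control was below its lowest SD liver, and the change was 0.94 ± 0.15 (SE; adjusted p = 2.13e-05).

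The later-acting and client-specific members were split, and the calls of Fkbp4 and Ptges3 were lost with the 2 groups alone in the fit (adjusted p = 0.0743 for Fkbp4 and 0.0671 for Ptges3), which left 5 of the 7. Fkbp4 (FKBP52), an immunophilin of steroid receptor complexes, had 7.19, 7.22 and 7.42 log2 CPM in SD livers, against 6.50, 6.52, 6.68, 6.73 and 7.13 in controls, a change of 0.58 ± 0.11 (SE; adjusted p = 0.000335). Ptges3 (p23), which holds HSP90 in its closed state, had 6.21, 6.49 and 6.80 in SD livers, against 5.79, 5.79, 5.92, 5.97 and 6.18 in controls, a change of 0.56 ± 0.10 (SE; adjusted p = 0.000113). A processed copy of Ptges3 stands in both tables, and how reads shared with it were assigned is not given, so its values are uncertain. Cdc37, which brings protein kinases to HSP90, was the member that did not pass. It had 6.04, 6.09 and 6.15 in SD livers, against 5.85, 6.00, 6.04, 6.10 and 6.14 in controls, overlapping groups with a change of 0.09 ± 0.08 (SE; 95% interval -0.07 to 0.24; adjusted p = 0.484).

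**Figure D1:**
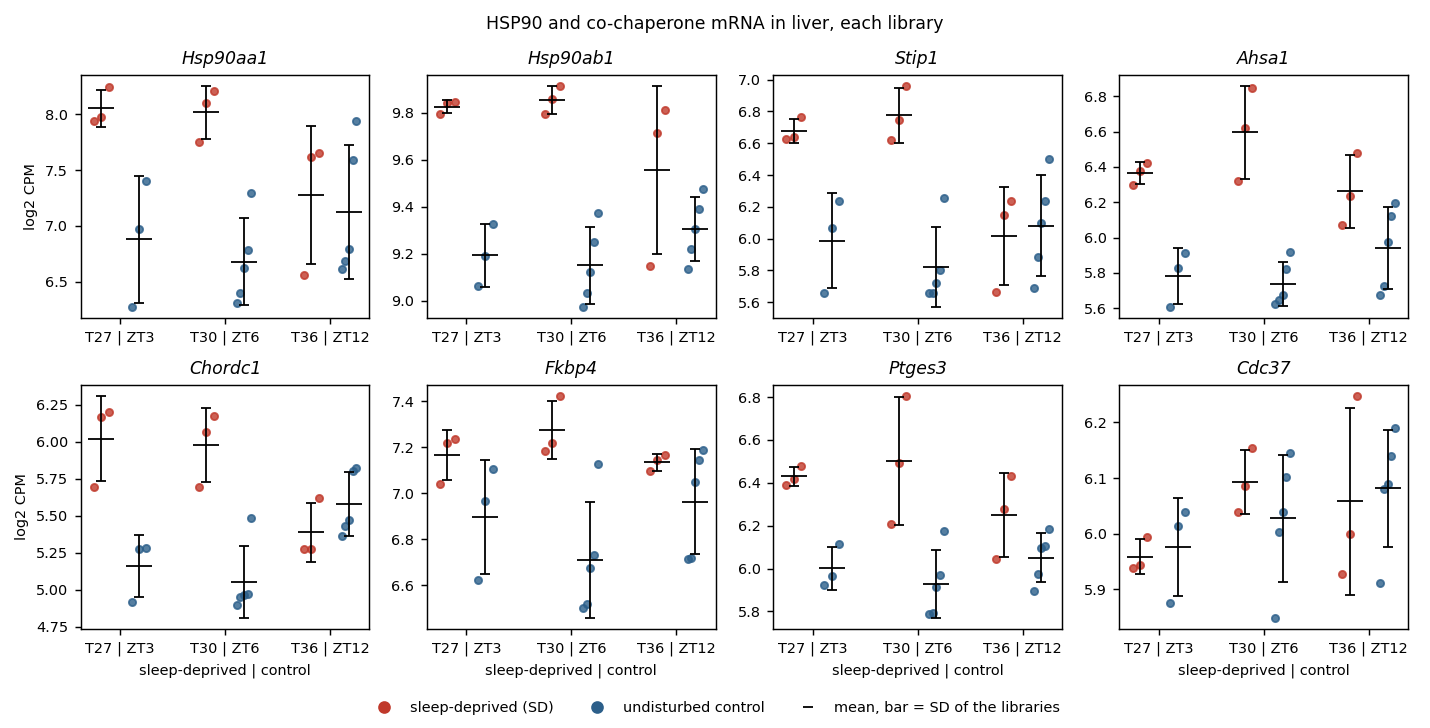
Log2 CPM of the 8 members in each liver library at T27, T30 and T36 (red, sleep-deprived, left of each pair) and in controls of the same ZT (blue, right); black marks are means and bars the SD of the libraries. At T30 the 3 SD livers of every member but Cdc37 lie above all 5 controls, and at T36 the groups overlap for all 8. The share of all liver genes whose groups separate in this way was not computed.

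After 3 h of deprivation (T27) the liver already had 6 members higher and none lower, where 0.847% of all genes rose and 0.652% fell. Hsp90aa1 had 7.94, 7.98 and 8.24 log2 CPM in SD livers, against 6.27, 6.97 and 7.40 in the 3 controls at ZT3, a change of 1.17 ± 0.28 (SE; adjusted p = 0.0139). Chordc1 had 5.69, 6.17 and 6.20 in SD livers, against 4.92, 5.27 and 5.28 in controls, a change of 0.86 ± 0.16 (SE; adjusted p = 0.00133). Both groups were apart in each. Hsp90ab1 had 9.79, 9.84 and 9.84 in SD livers, against 9.06, 9.19 and 9.33 in controls, a change of 0.63 ± 0.12 (SE; adjusted p = 0.00125). Stip1 had 6.63, 6.64 and 6.76 in SD livers, against 5.66, 6.07 and 6.24 in controls, a change of 0.69 ± 0.15 (SE; adjusted p = 0.00831). Ahsa1 (0.58 ± 0.12, adjusted p = 0.00363) and Ptges3 (0.43 ± 0.11, adjusted p = 0.0265) rose too, and the groups of these 4 did not overlap either (errors are SE). How many of all liver genes had groups apart at T27 was not computed, and groups of 3 can separate without a change. Fkbp4 (0.27 ± 0.12, adjusted p = 0.332) and Cdc37 (-0.02 ± 0.09, adjusted p = 0.978) did not pass. Some of these calls depend on control mouse T3N2, whose liver was the lowest control at ZT3 for every member but Ptges3 (5.66 for Stip1, where the other controls had 6.07 and 6.24). T3N2 is also 1 of 4 livers at 1 level of an unlabelled 3-level factor that the deposited liver values show had been removed; with that factor in the fit 6 members still passed. Without T3N2 3 members passed, with the adjusted p of Hsp90aa1 at 0.163, of Stip1 at 0.123 and of Ptges3 at 0.0954. Without SD mouse T27S5 the adjusted p of Hsp90aa1 was also above the threshold, and that of Ptges3 was without T3N4, T27S2 or T27S3 and with controls of the same batch only (0.0971). With the 2 groups alone in the fit, 2 members (Hsp90ab1 and Ahsa1) passed, and the adjusted p was 0.0777 for Hsp90aa1, 0.0727 for Stip1, 0.0601 for Chordc1 and 0.0630 for Ptges3. Between T27 and T30 no member's change differed by limma's test, where 0.142% of liver genes did. At an unadjusted p under 0.05 there were 0 members and 1532 of all 13338 liver genes.

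At T36, 6 h after deprivation ended, no liver member passed in limma's test, with changes from -0.17 (Chordc1) to 0.34 (Ahsa1), where 1.64% of liver genes were higher and 1.52% lower. At an unadjusted p under 0.05 there were 2 of the 8 members and 2415 of all 13338 liver genes. Hsp90aa1 had 6.56, 7.62 and 7.65 log2 CPM in SD livers, against 6.61, 6.68, 6.79, 7.59 and 7.94 in controls at ZT12, so both groups spread widely and overlapped. Chordc1 had 5.27, 5.28 and 5.62 in SD livers, against 5.37, 5.43, 5.47, 5.80 and 5.82 in controls, and Ahsa1 had 6.07, 6.24 and 6.48 in SD livers, against 5.68, 5.73, 5.98, 6.12 and 6.20 in controls. For Chordc1 2 of 3 SD livers lay below every control, and for Ahsa1 2 of 3 lay above every control. Liver T36S4 was the low one of the 3 SD livers for Hsp90aa1, Hsp90ab1 and Stip1. It also had the lowest correlation with its group of all liver libraries. Without it Hsp90ab1 and Ahsa1 passed at T36, and without control T12N6 Ahsa1 did.

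The change at T36 was smaller than that at T30 in 5 liver members, where 11.5% of liver genes differed in either direction. The change of Stip1 decreased by 1.02 ± 0.19 (SE; adjusted p = 0.000477) and Chordc1 by 1.12 ± 0.21 (SE; adjusted p = 0.000303). That of Hsp90aa1 decreased by 1.19 ± 0.35 (SE; adjusted p = 0.0198), Ahsa1 by 0.54 ± 0.15 (SE; adjusted p = 0.0147) and Hsp90ab1 by 0.45 ± 0.15 (SE; adjusted p = 0.0376). In each of the 5 the SD mean was lower at T36 than at T30. The control mean was also higher at ZT12 than at ZT6, so the decreases hold both shifts. For Chordc1 the SD mean went from 5.98 to 5.39 and the control mean from 5.05 to 5.58. The shifts were not tested separately. Fkbp4 (-0.39, adjusted p = 0.0925), Ptges3 (-0.37, adjusted p = 0.0714) and Cdc37 (-0.09, adjusted p = 0.652) did not pass. With controls of the same label batch only, 2 of the 5 (Stip1 and Chordc1) still passed, and the number was 2 without SD mouse T30S1 or T36S4 and 3 without control T12N5. Hsp90aa1 was lost without any of these 3, Ahsa1 without T30S1 or T36S4, and Hsp90ab1 also without T12N6, J76N1, J76N2, T6N2 or T30S4. The adjusted p of Hsp90ab1 was 0.0605 with the 3-level factor and 0.0564 with each library centred on its median. Fkbp4 passed without T12N2, T12N4 or T6N3, and Ptges3 without T12N2, T6N3, T30S3 or T36S2.

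In cortex 4 co-chaperones and Hsp90ab1 rose at T30 and Hsp90aa1 did not pass. These 5 of the 8 members rose by 1.07-fold to 1.32-fold, and none fell, where 15.7% of all cortex genes rose and 16.8% fell; the median change was 0.21 over the members and -0.01 over all genes. Chordc1 had 6.79, 6.86 and 6.99 log2 CPM in SD cortices, against 6.33, 6.48, 6.50, 6.51 and 6.55 in controls, a change of 0.40 ± 0.07 (SE; adjusted p = 1.2e-05). Stip1 had 7.32, 7.47 and 7.47 in SD cortices, against 6.98, 7.03, 7.07, 7.09 and 7.15 in controls, a change of 0.36 ± 0.05 (SE; adjusted p = 5.25e-07). In both, every SD cortex lay above every control. The share of all cortex genes whose groups separate in this way was not computed at T27, T30 or T36.

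Fkbp4 and Ahsa1 showed the same separation at T30. Fkbp4 had 6.62, 6.68 and 6.69 log2 CPM in SD cortices, against 6.29, 6.30, 6.34, 6.43 and 6.44 in controls, a change of 0.31 ± 0.05 (SE; adjusted p = 6.13e-07). Ahsa1 had 6.50, 6.52 and 6.54 in SD cortices, against 6.19, 6.19, 6.22, 6.24 and 6.26 in controls, a change of 0.30 ± 0.04 (SE; adjusted p = 5.99e-07). Hsp90ab1 rose least of the 5. It had 10.41, 10.44 and 10.45 in SD cortices, against 10.28, 10.32, 10.33, 10.35 and 10.37 in controls, a change of 0.10 ± 0.04 (SE; adjusted p = 0.0312). That call was lost with controls of the same batch only and with the 2 groups alone in the fit (adjusted p = 0.115 in each), and without any of J76N1, T6N2, T30S1 or T30S3 (adjusted p up to 0.107). Hsp90aa1 had 9.35, 9.37 and 9.37 in SD cortices, against 9.18, 9.20, 9.26, 9.32 and 9.35 in controls, overlapping groups that did not pass (0.10 ± 0.06, SE; 95% interval -0.03 to 0.23; adjusted p = 0.236). Ptges3 (0.11 ± 0.07, adjusted p = 0.182) and Cdc37 (0.11 ± 0.05, adjusted p = 0.0702) did not pass either, except Cdc37 without control J76N2 or T6N3.

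**Figure D2:**
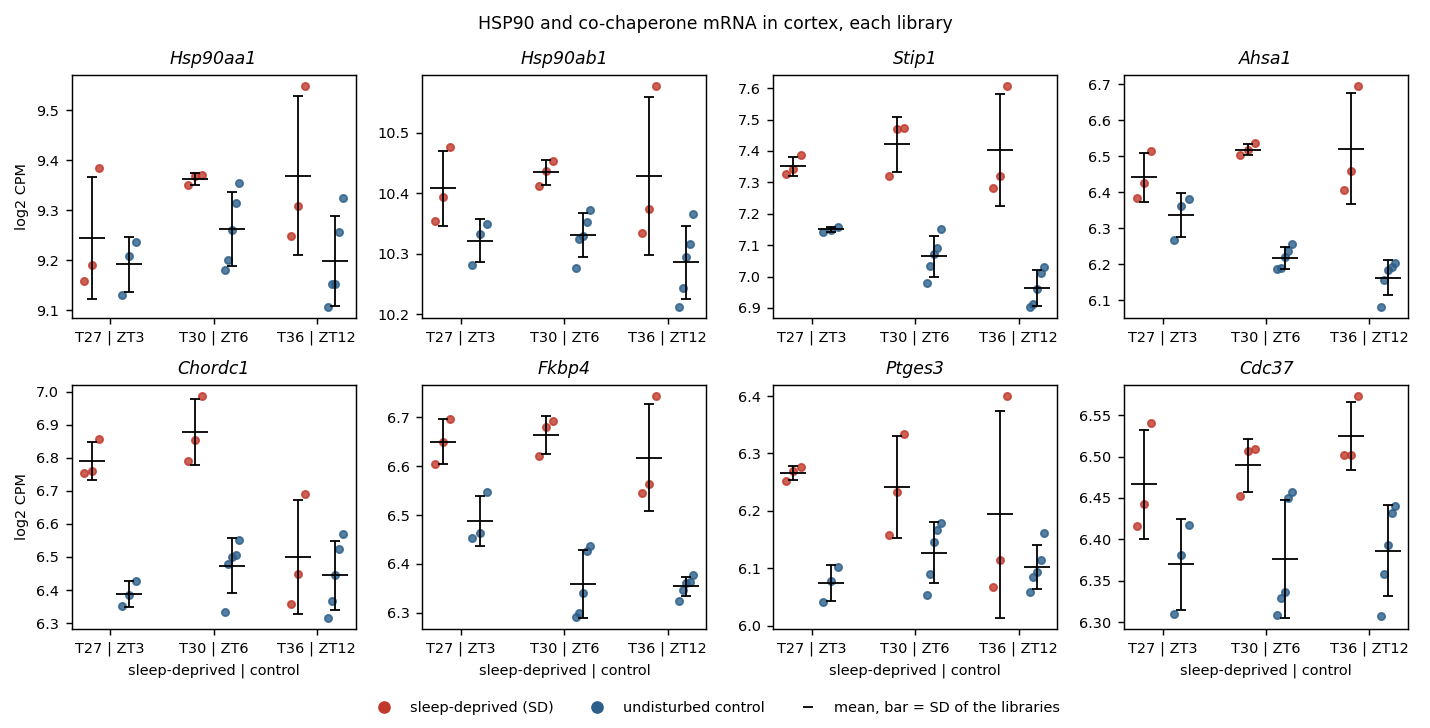
Log2 CPM of the 8 members in each cortex library at T27, T30 and T36 (red, sleep-deprived, left of each pair) and in controls of the same ZT (blue, right); black marks are means and bars the SD of the libraries. Chordc1 stands apart at T27 and T30 and overlaps at T36 (change 0.05), while Stip1 and Ahsa1 remain apart at T36 (changes 0.44 and 0.36). The share of all cortex genes whose groups stand apart was not computed. The vertical axes differ between panels.

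At T27 the cortex had 3 members higher and none lower, where 8.59% of all genes rose and 7.84% fell. Chordc1 had 6.75, 6.76 and 6.86 log2 CPM in SD cortices, against 6.35, 6.38 and 6.43 in controls, and its change of 0.40 ± 0.08 (SE; adjusted p = 0.000151) was already that of T30. Stip1 had 7.33, 7.34 and 7.39 in SD cortices, against 7.14, 7.15 and 7.16 in controls, a change of 0.20 ± 0.06 (SE; adjusted p = 0.00991). Fkbp4 rose by 0.16 ± 0.05 (SE; adjusted p = 0.0157), a call that was lost without T3N2, T3N4 or T27S3. Ptges3 had 6.25, 6.27 and 6.28 in SD cortices, against 6.04, 6.08 and 6.10 in controls, without overlap but with an adjusted p of 0.0559; with the 2 groups alone in the fit it passed (adjusted p = 0.00764). No member's change differed between T27 and T30, by limma's test (0.00585% of cortex genes did). At an unadjusted p under 0.05 there were 2 members, Ahsa1 and Fkbp4, and 1272 of all 17108 cortex genes.

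At T36, 6 h into recovery, 4 cortex members were still higher and none lower, where 6.9% of all genes were higher and 5.58% lower. Stip1 had 7.28, 7.32 and 7.61 log2 CPM in SD cortices, against 6.90, 6.91, 6.96, 7.01 and 7.03 in controls at ZT12, a change of 0.44 ± 0.05 (SE; adjusted p = 2.74e-08). Ahsa1 had 6.41, 6.46 and 6.70 in SD cortices, against 6.08, 6.15, 6.18, 6.19 and 6.20 in controls, a change of 0.36 ± 0.04 (SE; adjusted p = 6.85e-08). Both groups were apart in each. Fkbp4 had 6.55, 6.56 and 6.74 in SD cortices, against 6.32, 6.35, 6.36, 6.36 and 6.38 in controls, a change of 0.26 ± 0.05 (SE; adjusted p = 3.53e-05). Hsp90ab1 had 10.33, 10.37 and 10.58 in SD cortices, against 10.21, 10.24, 10.29, 10.32 and 10.37 in controls, overlapping groups with a change of 0.14 ± 0.04 (SE; adjusted p = 0.00786). SD mouse T36S1 had the highest cortex value of the 3 SD mice for all 8 members. Without it the change of Hsp90ab1 was 0.07 (adjusted p = 0.316), while the other 3 still passed. The call for Hsp90ab1 was also lost with the 2 groups alone in the fit (adjusted p = 0.158). Cdc37 had 6.50, 6.50 and 6.57 in SD cortices, against 6.31, 6.36, 6.39, 6.43 and 6.44 in controls, without overlap, and missed the threshold (0.14 ± 0.05, adjusted p = 0.051). It passed with each library centred on its median (adjusted p = 0.0375), with no batch term (adjusted p = 0.0378), without the lowest 20% of genes (adjusted p = 0.0447) and without control T12N4 or T12N6. Hsp90aa1 (0.17 ± 0.06, adjusted p = 0.0699) did not pass, except without T12N4 or T36S2.

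For Chordc1 the groups overlapped at T36. It had 6.36, 6.45 and 6.69 log2 CPM in SD cortices, against 6.32, 6.37, 6.45, 6.52 and 6.57 in controls, a change of 0.05 ± 0.07 (SE; adjusted p = 0.678). It was the 1 member of 8 whose change in cortex differed between T36 and T30, by -0.35 ± 0.10 (SE; adjusted p = 0.0112), where 12.2% of cortex genes did. That difference was lost without T30S1 or T36S4 and with controls of the same batch only (-0.30, adjusted p = 0.0886).

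From T42 to T198 no member passed in either tissue at any of the 9 times, by limma with Benjamini-Hochberg adjustment. At an unadjusted p under 0.05 there were 0 to 2 members per time in cortex and 0 to 1 in liver. Among all genes the numbers ran from 902 (T78) to 2263 (T48) of 17108 in cortex. In liver they ran from 250 (T192) to 1346 (T48) of 13338. The background was low at these times. In cortex 0.643% of genes were higher and 0.392% lower at T42, 0.772% higher and 0.719% lower at T48, and 0% in either direction from T54 on. Without SD mouse T54S4, 1 member passed in cortex at T54. In liver 0.0075% were higher and 0.0075% lower at T48, and 0% at T42 and from T54 on. Changes of the members ran from -0.14 (Stip1 at T42) to 0.15 (Fkbp4 at T54, adjusted p = 0.286) in cortex and from -0.38 (Hsp90aa1 at T60) to 0.44 (Hsp90aa1 at T54) in liver. Label batch 2 held every SD mouse killed at T60 or T66 and in the later week, and batch 1 all other SD mice, so a time and its batch are told apart only through the controls, which were of both batches at every time but ZT3.

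**Figure D3:**
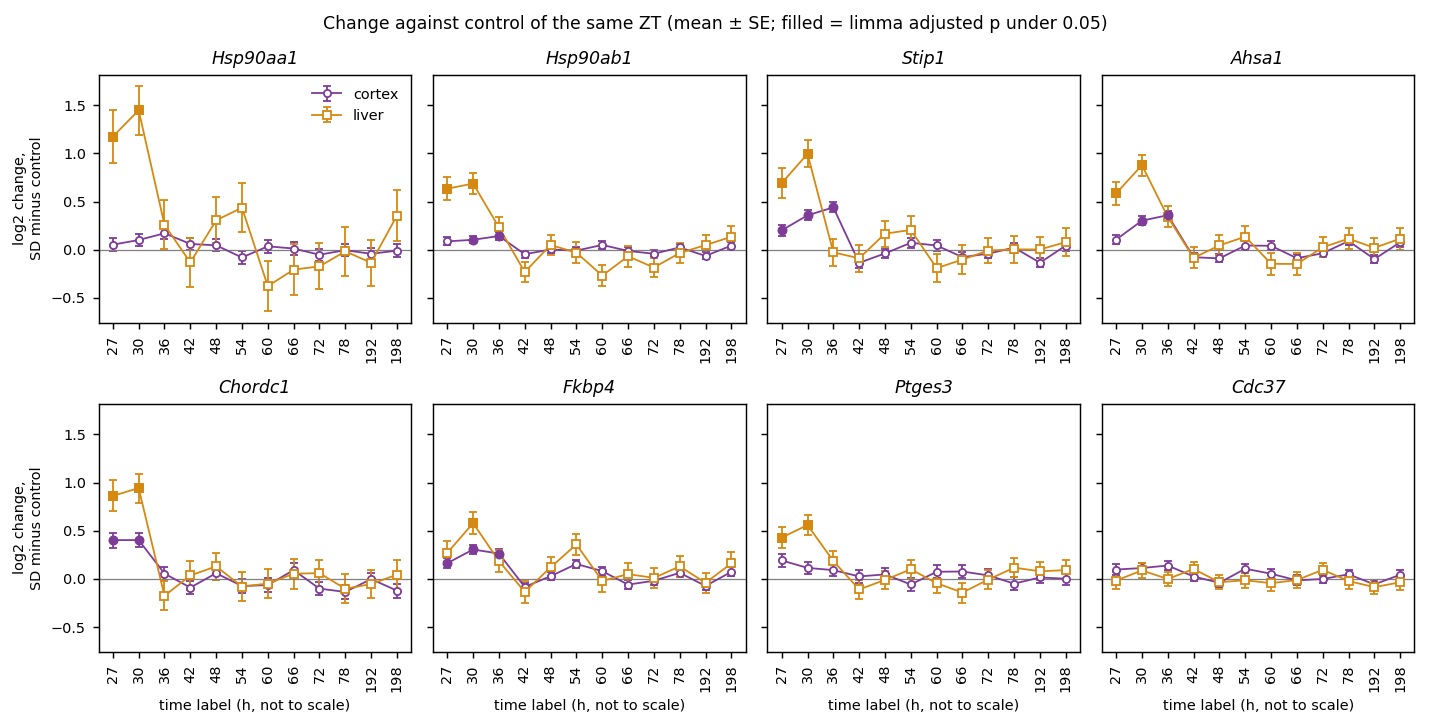
Log2 change (SD minus control of the same ZT, mean ± SE from limma) of the 8 members at the 12 SD times in cortex (purple circles) and liver (orange squares); filled symbols have an adjusted p under 0.05, and the time axis is not to scale. Liver changes stand highest at T27 and T30 (up to 1.45 for Hsp90aa1) and cortex changes stay within 0.44; no symbol is filled after T36.

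The tissues differed in the size of the change at T30 for 6 of the 8 members, all with the smaller rise in cortex, in a limma fit of both tissues over 12194 shared genes; 12.2% of those genes differed in either direction. The cortex change minus the liver change was -1.35 ± 0.27 for Hsp90aa1 (SE; adjusted p = 0.000195), with changes of 0.10 in cortex and 1.45 in liver. It was -0.64 ± 0.15 for Stip1 (adjusted p = 0.00225), -0.58 ± 0.11 for Hsp90ab1 (adjusted p = 0.00016), -0.58 ± 0.12 for Ahsa1 (adjusted p = 0.000333), -0.54 ± 0.17 for Chordc1 (adjusted p = 0.0222) and -0.44 ± 0.12 for Ptges3 (adjusted p = 0.00769). For Fkbp4 (-0.27 ± 0.12, adjusted p = 0.137) and Cdc37 (0.02 ± 0.09, 95% interval -0.16 to 0.21, adjusted p = 0.896) the difference did not pass. The call for Chordc1 was lost without T6N2, T6N4, T30S1 or T30S4, and that for Ptges3 without T30S1. The difference for Fkbp4 passed without T6N3 (-0.38, adjusted p = 0.0207).

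At T27 the tissues differed for Hsp90aa1 (-1.12 ± 0.29, adjusted p = 0.0183), Hsp90ab1 (-0.55 ± 0.12, adjusted p = 0.00522) and Ahsa1 (-0.48 ± 0.13, adjusted p = 0.0255), where 2.12% of genes did. None of these 3 passed without mouse T3N2, and 1 passed without T3N3, T27S2 or T27S5. At T36 no member passed (4.55% of genes did). Stip1 came nearest, with 0.44 in cortex and -0.03 in liver, a difference of 0.47 ± 0.15 (SE; adjusted p = 0.0579). With the mouse as a replicate block, which pairs the tissues of 1 animal, its adjusted p was 0.0402, and with no batch term 0.0286. At T42 no member and no other gene passed (0%).

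In undisturbed mice the members had wider ranges over the day in liver than in cortex; the difference in range was not tested. Over the 5 control times, 7 of 8 members differed in liver by limma's F test, where 52% of liver genes did, and 5 of 8 in cortex, where 41.9% of cortex genes did. The median range between the highest and the lowest time was 0.93 (log2) over the members in liver, against 0.42 over all liver genes, and 0.23 in cortex, against 0.21 over all cortex genes. Hsp90aa1 averaged 8.75 ± 0.31 log2 CPM at ZT18 and 6.68 ± 0.39 at ZT6 in liver (SD, n = 5 each), a 4.21-fold range (adjusted p = 1.37e-10). That range was wider than those of 98.5% of liver genes. In cortex it averaged 9.25 ± 0.05 at ZT18 and 9.26 ± 0.07 at ZT6 (SD, n = 5 each), and its F test did not pass (adjusted p = 0.578).

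The co-chaperones of liver had the same extremes, with Chordc1 and Cdc37 apart. Of all 13338 liver genes, 3184 were highest at ZT18 and 2869 lowest at ZT6. Fkbp4 averaged 7.93 ± 0.11 log2 CPM at ZT18 and 6.71 ± 0.25 at ZT6 (SD, n = 5 each; 2.32-fold). Stip1 averaged 6.93 ± 0.14 at ZT18 and 5.82 ± 0.25 at ZT6 (2.16-fold), Hsp90ab1 10.18 ± 0.08 and 9.15 ± 0.16 (2.04-fold), and Ahsa1 6.57 ± 0.11 and 5.74 ± 0.13 (1.78-fold; SD, n = 5 each). Chordc1 was lowest at ZT6 (5.05 ± 0.24, n = 5) and about as high at ZT0 (5.80 ± 0.11, n = 8) as at ZT18 (5.79 ± 0.11, n = 5). Ptges3 had a range of 0.43 (adjusted p = 0.000534), which did not pass within batch 1 controls alone (adjusted p = 0.0605). Cdc37 stayed between 5.98 and 6.08 over the 5 times (adjusted p = 0.753).

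In cortex 6 of the 8 members were highest at ZT18, as were 3964 of all 17108 cortex genes, and ranges were smaller. Stip1 averaged 7.38 ± 0.05 log2 CPM at ZT18 and 6.96 ± 0.06 at ZT12 (SD, n = 5 each), a range of 0.42 (adjusted p = 5.43e-11). Chordc1 had a range of 0.37 between ZT18 and ZT3 (adjusted p = 1.04e-06), Fkbp4 of 0.30 (adjusted p = 3.34e-09), Ahsa1 of 0.29 (adjusted p = 2.58e-09) and Hsp90ab1 of 0.14 (adjusted p = 0.000343), these last between ZT18 and ZT12. Ptges3 (0.18, adjusted p = 0.0816) and Cdc37 (0.09, adjusted p = 0.167) did not pass.

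**Figure D4:**
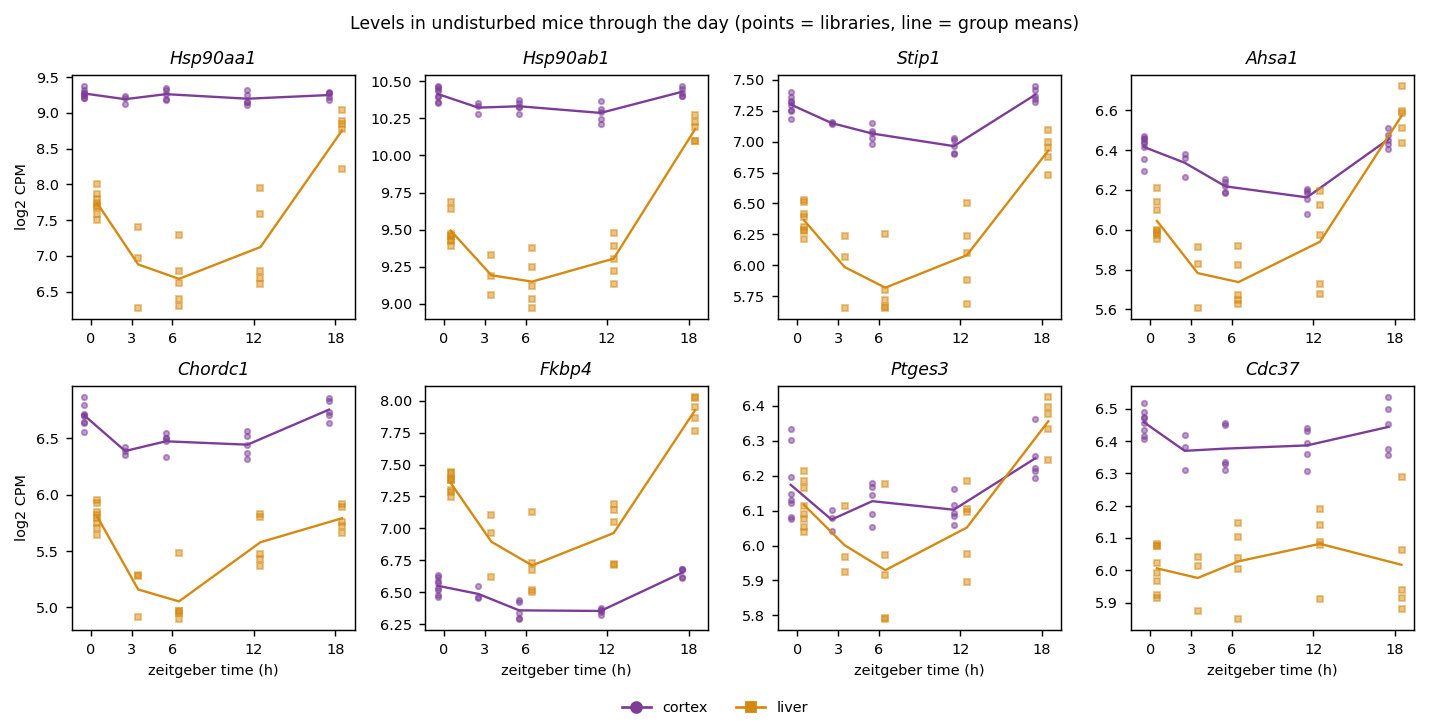
Log2 CPM of the 8 members in undisturbed mice by zeitgeber time in cortex (purple circles) and liver (orange squares); points are libraries and lines join the group means. In liver all members but Chordc1 and Cdc37 peak at ZT18 (3184 of all 13338 liver genes do), where Hsp90aa1 averaged 8.75, and the cortex lines stay within 0.42 of log2 CPM.

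Placed in the order of all 17 groups, the deprived livers of T27 and T30 lay below the undisturbed night level (ZT18) of both HSP90 genes, Stip1 and Fkbp4. Hsp90aa1 averaged 8.05 at T27 and 8.02 at T30, and both lay under the ZT18 controls (8.75). The levels of Hsp90aa1 at T27 and T30 did not differ beyond their spread. For Stip1 the gap between T30 (6.77 ± 0.17, SD, n = 3) and ZT18 (6.93 ± 0.14, SD, n = 5) was within the spread too, while Fkbp4 averaged 7.17 at T27 and 7.28 at T30, against 7.93 at ZT18. A deprived group stood first for 5 members, Ahsa1 (6.60 at T30), Ptges3 (6.50 at T30), Chordc1 (6.02 at T27), Fkbp4 (8.00 at T66) and Cdc37 (6.10 at T42), and in none of these did the gap to the next group exceed their spread. In cortex a deprived group stood first for all 8 members (T30 or T36 for 7, and T66 for Ptges3), and in none did the gap between the first and the next group exceed their spread. In either tissue 12 of the 17 groups were deprived ones, so a deprived group can often stand first without a change.

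Among 29 other HSP90 paralogues and co-chaperones measured in cortex, 5 rose and 1 fell at T27, 8 rose and 1 fell at T30, and 2 rose at T36; in liver, of 28, the numbers were 3 and 0, 7 and 2, and 0 and 0. Among all cortex genes 8.59% rose and 7.84% fell at T27, 15.7% and 16.8% at T30, and 6.9% rose at T36, so that 2 of 29 at T36 is near the share of all genes; in liver 0.847% rose at T27, and 7.84% rose and 7.95% fell at T30. Fkbp5, the immunophilin that is induced by glucocorticoid receptor and lowers its affinity for hormone, rose in both tissues at T30, to 5.001 log2 CPM in SD cortex against 4.46 in controls (0.54 ± 0.11, SE; adjusted p = 0.000147) and to 5.99 in SD liver against 4.71 in controls (1.37 ± 0.26, SE; adjusted p = 0.000207). Hsp90b1 (GRP94), the HSP90 of the endoplasmic reticulum, rose in cortex (0.46 ± 0.07, adjusted p = 1.24e-06) and did not pass in liver (0.44 ± 0.18, adjusted p = 0.0827). Trap1, the mitochondrial HSP90, passed in neither (-0.01 in cortex and 0.09 in liver). Ahsa2, a relative of Ahsa1, rose in both (0.17 in cortex, 0.64 in liver), as did Nudc (0.20 in cortex, 0.29 in liver). Cacybp (0.72) and the cyclophilin Ppid (0.53) rose in liver, and Sgtb, a tetratricopeptide co-chaperone, fell in cortex (-0.32). Over the list the median change at T30 was 0.04 in cortex and 0.10 in liver.

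Heat shock factors and their classical targets rose at T30 in 13 of 21 measured genes in each tissue, and none fell. At T27 the numbers were 10 in cortex and 5 in liver. The shares of all genes that rose were 15.7% at T30 and 8.59% at T27 in cortex, and 7.84% at T30 and 0.847% at T27 in liver. The median change at T30 was 0.23 in cortex and 0.50 in liver. Hsph1 (HSP110, a nucleotide exchange factor of HSP70) had 8.81 log2 CPM in SD cortex against 8.21 in controls (0.60 ± 0.07, SE; adjusted p = 6.19e-10), and 6.75 in SD liver against 4.60 in controls (2.18 ± 0.28, SE; adjusted p = 4.07e-07). Hspa8, the constitutive HSP70, rose by 0.49 in cortex and 1.25 in liver, Dnajb1 (HSP40) by 0.40 and 1.01 in the same order of tissues, and Hspb1 (HSP27) by 1.44 and 1.81. Serpinh1 (HSP47), a collagen chaperone, rose by 0.74 in cortex and 1.12 in liver, and Hsf1 itself by 0.32 and 0.49. At T36 the list was mixed in both tissues. In cortex 8 were higher and 2, Dnajb4 and Hspa2, lower, where 6.9% of all genes were higher and 5.58% lower. In liver 2, Hspb1 (1.58) and Hspe1 (0.37), were higher and 4 were lower, Hspa1b (-2.04), Hspa2 (-1.10), Hspa8 (-0.90) and Bag3 (-0.88), where 1.64% of all genes were higher and 1.52% lower. At T42 in cortex 5 were lower (Hspa1a, Hspa1b, Dnajb1, Hspa2 and Dnaja4) and none higher, where 0.643% of all genes were higher and 0.392% lower. The genes listed for T36 and T42 were named after their values were seen, and Hspa1a and Hspa1b are near-identical, so their values are uncertain.

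Client receptors and kinases of HSP90 were called in both directions at T30, in shares near those of all genes (15.7% higher and 16.8% lower in cortex, 7.84% higher and 7.95% lower in liver). In cortex 2 of 20 rose and 2 fell at T30, namely Akt2 (0.21) and Src (0.14), and Nr3c2, the mineralocorticoid receptor (-0.32), and Hif1a (-0.24). In liver 1 of 19 rose, the kinase Camkk2 (0.81 ± 0.16, SE; adjusted p = 0.000272), and 2 fell, Esr1 (-0.76) and Met (-0.44). Nr3c1, the glucocorticoid receptor and a client that both Fkbp4 and Fkbp5 bind, passed in neither tissue (-0.11 in cortex, 0.00 in liver). Egfr had a change of 1.04 ± 0.42 in liver (SE), which did not pass (adjusted p = 0.0793). At T27 no client passed in either tissue, in limma's test. At an unadjusted p under 0.05 there were 4 of 20 clients in cortex, where 4949 of all 17108 genes were. In liver there was 1 of 19, where 1680 of all 13338 genes were, so neither exceeded the share of all genes.

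**Figure D5:**
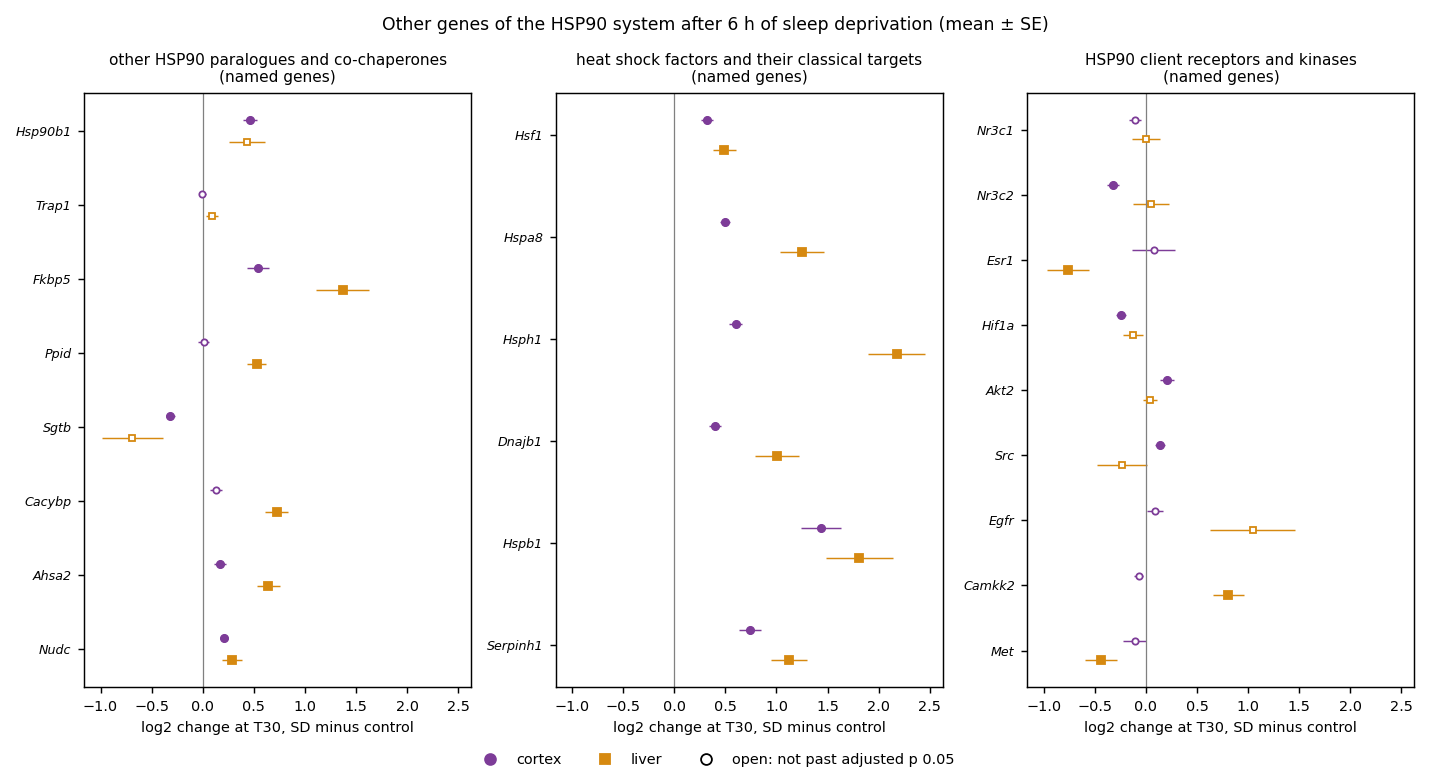
Log2 change at T30 (SD minus control, mean ± SE) of the named genes of 3 lists in cortex (purple circles) and liver (orange squares); filled symbols have an adjusted p under 0.05. All 6 heat shock genes shown are filled to the right of 0 in both tissues, from 0.32 to 1.44 in cortex and from 0.49 to 2.18 in liver, whereas the client genes shown lie on both sides of 0. Genes were picked by name or for the smallest p at T30, so the filled symbols do not stand for the whole lists. In each tissue 8 of the 21 heat shock genes measured did not pass at T30.

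Genes whose 17 group means ran most like the mean profile of the 8 members, each scaled to unit SD, were Rpn1 (Pearson r = 0.953), Hsph1 (0.945), Lrrc59 (0.932), Calr (0.932) and Vopp1 (0.928) in cortex. In liver they were Tmem33 (0.987), Ahsa2 (0.974), Cacybp (0.963), Bpnt1 (0.934) and Snx3 (0.931). Outside the members 21 genes in cortex and 14 in liver exceeded 0.9. Against the same mean profile, which contains them, the members ran from 0.708 (Cdc37) to 0.962 (Stip1) in cortex and from 0.289 (Cdc37) to 0.968 (Ahsa1) in liver. The points are group means that share libraries and time of day, and the r values are descriptions.

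The labelled tissues had their defining markers. The mean of 5 neuron markers was 9.90 to 10.14 log2 CPM over cortex libraries of SD mice and 9.98 to 10.14 over those of controls, and that of 5 hepatocyte markers was 12.60 to 13.23 (SD) and 12.68 to 13.34 (controls) over liver libraries. In liver no marker of 12 cell types passed at T27 or T36, and 1 marker each of 4 types (neuron, astrocyte, oligodendrocyte, and meninges and fibroblasts) was lower at T30. In cortex 3 of 4 measured choroid plexus markers were lower at T27, where the list mean was -0.46 to 1.19 over all SD libraries and -0.53 to 3.31 over all controls. At T36, 3 of 5 endothelium markers were higher in SD cortex, with list means of 3.89 to 4.46 over SD libraries and 3.84 to 4.43 over controls. Other cell types had 1 marker each lower in SD cortex at T27 (meninges and fibroblasts, hepatocyte, stellate cell) and at T30 (neuron, oligodendrocyte, stellate cell, cholangiocyte), and at T36 an astrocyte and a cholangiocyte marker were higher and a microglia marker lower. The gene Ttr is on both the choroid plexus and the hepatocyte list, so their counts at T27 may share a gene. Of 5 microglia markers 1 was higher and 2 lower at T30, with list means of 4.98 to 5.32 over SD libraries and 5.02 to 5.30 over controls. Their part in the cortex results at these times was not tested.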

How the data were processed

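Poly(A) RNA of liver was sequenced as stranded single-end reads (miRNeasy, TruSeq Stranded mRNA, Illumina sequencer), per the labels' protocols; the cortex libraries are labelled as a re-analysis of an earlier study, and their preparation was not given in the sources used. The authors deposited 1 table per tissue of log2 CPM values (124 library columns in all), and the submitters' processing notes name fastp, STAR 2.7.0e, edgeR and the builds mm10 and GRCm38. Counts are not among the values used, so the depth of each library is unknown and no counting interval is given. Entries with no gene name were left out (77 in cortex, 0.0618% of the summed CPM, and 35 in liver, 0.0337%). The deposited values show that 1 dimension of variation had been removed in cortex, within the groups and the label batch, and 2 in liver that match an unlabelled 3-level factor of 50, 8 and 4 libraries; liver p-values that do not count this factor are too small, and it was added to the fit as an alternative.

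Changes were tested with limma 3.58.1 in R 4.3.3 (moderated test with a mean-variance trend, 17 groups and the label batch of 40 and 22 libraries, 44 residual degrees of freedom), with Benjamini-Hochberg adjustment over all genes of the table and a threshold of 0.05. The tissue difference was fitted over both tissues (88 residual degrees of freedom). The same mouse gave both tissues, per the animal codes in the labels. The deviations of the 2 libraries of a mouse from their group means correlated at a median of 0.0258 over 62 mice (-0.0879 to 0.161), and the mouse was a block in an alternative. The fits were tested on simulated data with known changes. Named are all members, 8 genes of the pathway lists picked by name, up to 4 genes of each list with the smallest p at T30 in each tissue, and the 5 genes most like the members. The members and lists were chosen with earlier results of these data known. Other alternatives were controls of the same batch only, no batch term, libraries centred on their median, no trend, the 2 groups alone, leaving out the lowest 20% of genes and leaving out each library.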

Additional observations from a re-analysis of the deposited data

Results flagged for a closer look

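A single control liver stood apart from its group in 2 members. In mouse T6N3, killed at ZT6, Stip1 was at 6.25 log2 CPM, where the other 4 controls lay between 5.66 and 5.81, and Chordc1 was at 5.48, where the others lay between 4.90 and 4.97. Of 64 groups of members tested for such a gap these were the 2 found. Chance flags about 1 in 20, so the 2 flags, both from 1 mouse, are no more than chance gives. Deprived groups and controls at ZT3 were too small to be tested. The same mouse was the highest control at ZT6 in both, and both changes at T30 passed with it in the group.

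The change differed between the tissues, cortex minus liver, in limma's interaction test for 9 pairs of member and time. Among all shared genes 2.12% differed at T27 and 12.2% at T30, in either direction. At T27 the difference was -1.12 for Hsp90aa1, -0.55 for Hsp90ab1 and -0.48 for Ahsa1, and none of these passed without mouse T3N2. At T30 it was -1.35 for Hsp90aa1, -0.58 for Hsp90ab1, -0.64 for Stip1, -0.58 for Ahsa1, -0.54 for Chordc1 and -0.44 for Ptges3. The tables were normalised separately, so these are differences between changes and not between levels.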

How the results depend on the processing

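Of 559 summary values recomputed under the alternatives (counts of members that passed and 2 lists of most similar genes), 538 were close to those reported, within 1.5 times for a count. They include the counts at T42 to T198, where few or no genes passed and a count of 0 could hardly change. A count called close can still lose calls, as for Fkbp4 and Ptges3 in liver at T30 with the 2 groups alone. Of 1570 values of single members 1460 kept their direction and their side of the threshold, and 23 changed sign. With controls of the same batch only, the members whose change differed between T36 and T30 numbered 0 in cortex (1 with all controls) and 2 in liver (5 with all). With the 2 groups alone in the fit, 2 liver members passed at T27 (6 in the full fit). With the mouse as a replicate block, 1 member (Stip1) differed between tissues at T36, as also with no batch term (1); the block changed no other call. Leaving out 1 library at a time gave 0 to 1 for the T36 to T30 difference and 0 to 1 at T54 in cortex. In liver it gave 3 to 6 at T27, 0 to 2 at T36 and 2 to 7 for the T36 to T30 difference. For the tissue difference it gave 0 to 3 at T27 and 0 to 1 at T36; this leaving-out of mice was chosen after seeing the data. The cause was not tested. Values that changed sign were all near 0 and had not passed. In liver Stip1 at T36 was 0.13 with same-batch controls and with the 2 groups alone, and -0.14 to 0.15 leaving out 1 library. Cdc37 at T36 was 0.0315 in both of those settings, 0.0025 with the 3-level factor, 0.0113 with centred libraries and -0.0957 to 0.0645 leaving out 1 library. Its T36 to T30 difference was 0.0217 with same-batch controls, and at T27 it was 0.0048 with centred libraries and -0.0680 to 0.0144 leaving out 1 library. Leaving out 1 library gave -0.0176 to 0.0949 for Hsp90aa1 in cortex at T27, -0.0410 to 0.126 for Chordc1 and -0.0118 to 0.155 for Ptges3 in cortex at T36, -0.228 to 0.0196 for the tissue difference of Fkbp4 at T27 and -0.0241 to 0.0874 for that of Cdc37 at T30. With the 3-level factor all liver genes past the threshold numbered 137 at T27 (200 without it), 1709 at T30 (2107) and 226 at T36 (422). Depth is unknown, and 3 mice per deprived group limit how small a change can be told from 0.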
